A study of Homo sapiens with 6 samples.

Results

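miR-32 is a microRNA (miRNA) hairpin with 2 mature products, hsa-miR-32-5p and hsa-miR-32-3p, and both arms were taken by name from the 2588 mature miRNAs of the deposited table. The table came from miRNA sequencing of Huh7 cells, a human hepatoma cell line, collected 48 h after Lipofectamine 2000 transfection of a plasmid carrying the circular RNA (circRNA) hsa_circ_0098181 (overexpression group, 3 samples) or of its control plasmid (control group, 3 samples). Both groups were therefore transfected transiently, and the labels give neither separate cultures nor clones, so that the spread between samples of a group may be technical. The table holds no circular RNA, so the overexpression itself was not checked here.

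miRNAs are cut from a hairpin precursor as a duplex, of which a single strand is usually kept in an Argonaute protein and guides it to messenger RNAs through the seed, bases 2 to 8 of the mature sequence. The other strand is mostly degraded, so that the levels of both arms are often far apart. miR-32-5p belongs to the seed family of miR-25, miR-92, miR-363 and miR-367. This family is known for repressing BCL2L11, which promotes apoptosis, and miR-32 is known as an androgen-induced miRNA in prostate cancer.

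In GRCh38, the hairpin gene MIR32 lies at chr9:109046229-109046298 on the minus strand and is 70 bases long. It sits in intron 14 (chr9:109038118-109050282) of TMEM245-201, a transcript with 18 exons of the protein-coding gene TMEM245, which is transcribed from the same strand. The 5p arm starts at base 6 of the hairpin and the 3p arm at base 47, with 19 bases between them. The mature sequences of RefSeq (GRCh38.p14) are shown 5′ to 3′ with the seed in capitals, because the seed defines the family with which miR-32-5p is compared:
hsa-miR-32-5p: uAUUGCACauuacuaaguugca
hsa-miR-32-3p: cAAUUUAGugugugugauauuu
hsa-miR-25-3p: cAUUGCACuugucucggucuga
hsa-miR-92a-3p: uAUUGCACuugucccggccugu
hsa-miR-92b-3p: uAUUGCACucgucccggccucc
hsa-miR-363-3p: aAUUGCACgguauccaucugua
hsa-miR-367-3p: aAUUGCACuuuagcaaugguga

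The seed AUUGCAC was shared by 6 of the 2370 mature names in RefSeq, whereas the seed of miR-32-3p was found in miR-32-3p alone (1 of 2370). After the seed the family members part. Read from the 5′ end without gaps, miR-25-3p, miR-363-3p and miR-367-3p had the base of miR-32-5p at 6 of the 14 positions after base 8, and miR-92a-3p and miR-92b-3p at 3 of the 14. Both miR-32 arms are rich in A and U. G and C made up 31.8% of miR-32-5p and 27.3% of miR-32-3p, against 50.0% of miR-25-3p and 54.5% of miR-92a-3p.

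Both arms were counted in every sample. In control replicates 1 to 3, hsa-miR-32-5p had 1375, 1217 and 744 counts, and in overexpression replicates 1 to 3 it had 691, 615 and 675. For hsa-miR-32-3p the control samples had 481, 379 and 242 counts and the overexpression samples 317, 227 and 310. These counts stand against sample totals between 7144798 and 10786295, and together both arms were a very small part of each library. Levels are given as TPM, which in this table means counts per 1000000 counts of that sample, with no term for length. All 7 sequences above are 22 bases long.

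The guide-like arm miR-32-5p was at 127, 140 and 104 TPM in control replicates 1 to 3, and at 86.6, 72.6 and 81.4 TPM in overexpression replicates 1 to 3. Every overexpression sample was below every control sample, and the nearest values were those of overexpression replicate 1 and control replicate 3. The mean with the circRNA plasmid was 80.2 ± 7.07 TPM (SD, n = 3), against 124 ± 18.3 TPM (SD, n = 3) with the control plasmid. In bulk RNA, a lower level per cell and fewer cells with the miRNA cannot be told apart.

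miR-32-3p was at 44.6, 43.7 and 33.9 TPM in control replicates 1 to 3, and at 39.7, 26.8 and 37.4 TPM in overexpression replicates 1 to 3. The groups overlapped, because control replicate 3 was below overexpression replicates 1 and 3. The mean with the circRNA plasmid was 34.6 ± 6.89 TPM (SD, n = 3), against 40.7 ± 5.94 TPM (SD, n = 3) with the control plasmid, so that the means differed by about the spread within a group.

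**Figure D1:**
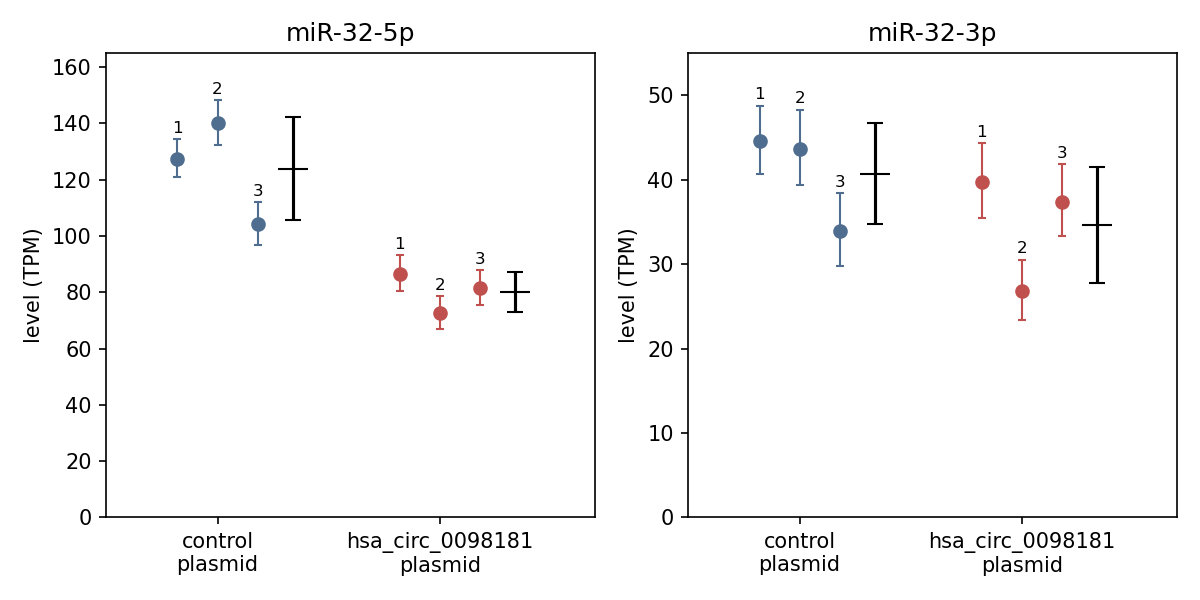
Level of miR-32-5p (left) and miR-32-3p (right) in TPM for each sample, numbered by replicate; coloured bars are exact 95% Poisson intervals of the count and the black bar beside each group is its mean ± SD (n = 3). The 5p arm lay between 72.6 and 86.6 TPM with hsa_circ_0098181 and between 104 and 140 TPM with the control plasmid, while the 3p arm overlapped.

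The spread between samples was wider than counting error. For miR-32-5p the exact 95% Poisson interval was 96.8 to 112 TPM in control replicate 3, below the interval of control replicate 2, 132 to 148 TPM. The coefficient of variation of miR-32-5p between samples was 14.8% among the control samples and 8.82% among the overexpression samples, against 3.08% and 3.90% from counting alone. For miR-32-3p it was 14.6% and 19.9%, against 5.37% and 5.98% from counting. The intervals cover counting error only.

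The difference in miR-32-5p is a description, because miR-32 was chosen by this contrast: among the 552 miRNAs that passed the filter on low counts, miR-32-5p had the smallest unadjusted p in edgeR's quasi-likelihood fit. No test of it is given for this reason. After scaling by edgeR's TMM factors, which balance the libraries over most miRNAs, the level of miR-32-5p with hsa_circ_0098181 was 0.697 times that of the control, a log2 fold change of -0.52 (SE 0.13). Its scaled levels, in counts per 1000000 (CPM), were 127, 136 and 95.7 in the control samples and 86.9, 78.9 and 84.2 in the overexpression samples, again without overlap. Of the 552 miRNAs, 6.52% had every overexpression sample below every control sample on this scale, and 16.3% did in TPM, where the median log2 fold change of all miRNAs was moved to -0.11 from 0.0038 with TMM factors.

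miR-32-3p was 0.911 times the control level, with a log2 fold change of -0.13 (SE 0.16), and was number 285 of the 552 when ordered by the same p. Both arms were thus below the control on average, as was the case for 34 of 135 hairpins with both arms tested (25.2%). By adjusted p under 0.05, 0 of the 552 miRNAs were called in edgeR (0%), DESeq2 and limma on log2 of CPM also called 0, and 50 (9.06%) had an unadjusted p under 0.05 in edgeR.

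Control replicate 3 stood apart from the other control samples, and both arms moved with it. Over 152 miRNAs with a mean of at least 100 CPM, the median absolute log2 difference was 0.049 between control replicates 1 and 2, and 0.21 between control replicate 3 and either of them. Between control replicate 3 and overexpression replicates 1 to 3 it was 0.12, 0.19 and 0.16, so that this control sample was nearer to each overexpression sample than to its own group. For miR-32-5p, control replicate 3 differed from control replicates 1 and 2 by 0.41 and 0.51 on the log2 scale of the scaled levels, and for miR-32-3p by 0.51 and 0.44. From overexpression replicates 1 to 3 it differed by 0.14, 0.28 and 0.19 for miR-32-5p and by 0.36, 0.097 and 0.31 for miR-32-3p. Without control replicate 3, the log2 fold change was -0.67 (SE 0.097) for miR-32-5p and -0.29 (SE 0.11) for miR-32-3p, and 56 of 565 miRNAs were called in edgeR (9.91%). Without overexpression replicate 2, where miR-32-3p was lowest, its log2 fold change was -0.0081 (SE 0.16), while that of miR-32-5p was -0.49 (SE 0.16).

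**Figure D2:**
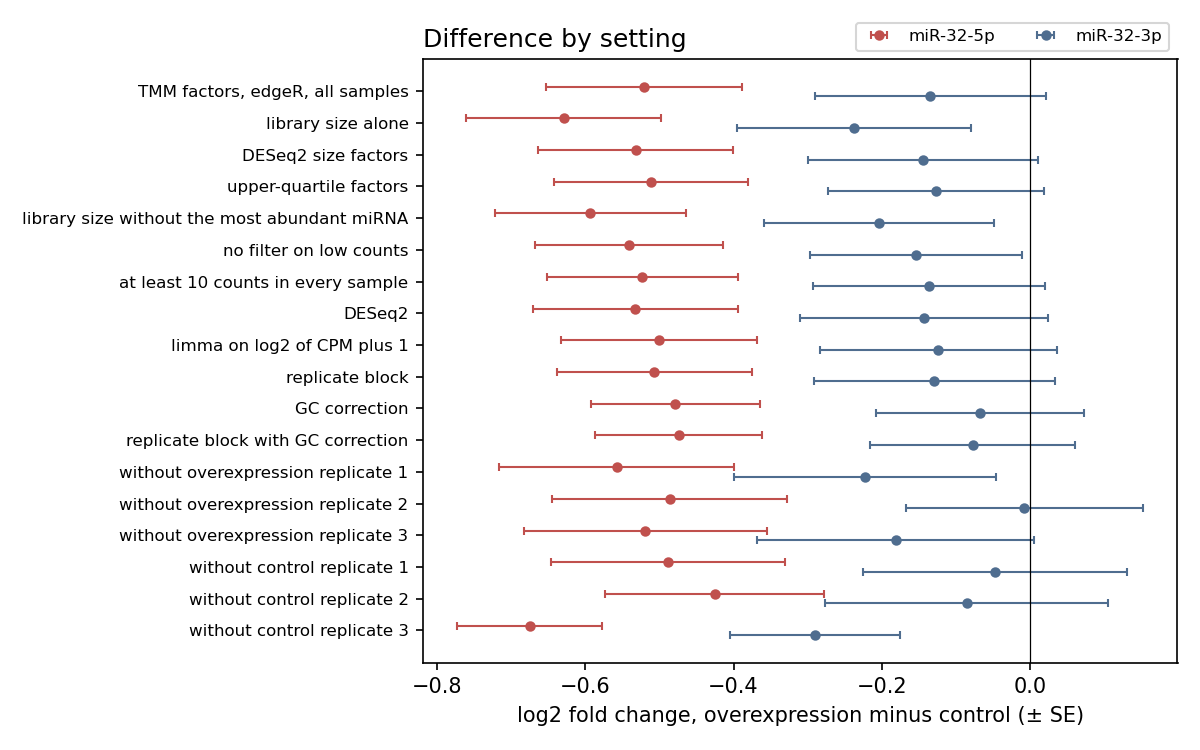
Log2 fold change (overexpression minus control, points) with its standard error (bars) for miR-32-5p and miR-32-3p in the fit with TMM factors and under each alternative. miR-32-5p lay between -0.67 and -0.43 throughout, and miR-32-3p between -0.29 and -0.0081.

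The balance of both arms does not depend on library size, since they are counted in the same library. Of the miR-32 counts, 74.1%, 76.3% and 75.5% were on the 5p arm in control replicates 1 to 3, and 68.6%, 73.0% and 68.5% in overexpression replicates 1 to 3. The groups did not overlap, although the 95% Wilson intervals of overexpression replicate 2 (69.9% to 75.9%) and control replicate 1 (72.0% to 76.0%) did. Control replicate 3 lay between the other control samples in this measure. The log2 ratio of 5p to 3p was 1.60 ± 0.085 (SD, n = 3) with the control plasmid and 1.23 ± 0.18 (SD, n = 3) with the circRNA plasmid, and the latter minus the former was -0.38. This difference is again a description, as it contains the 5p counts by which miR-32 was chosen.

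**Figure D3:**
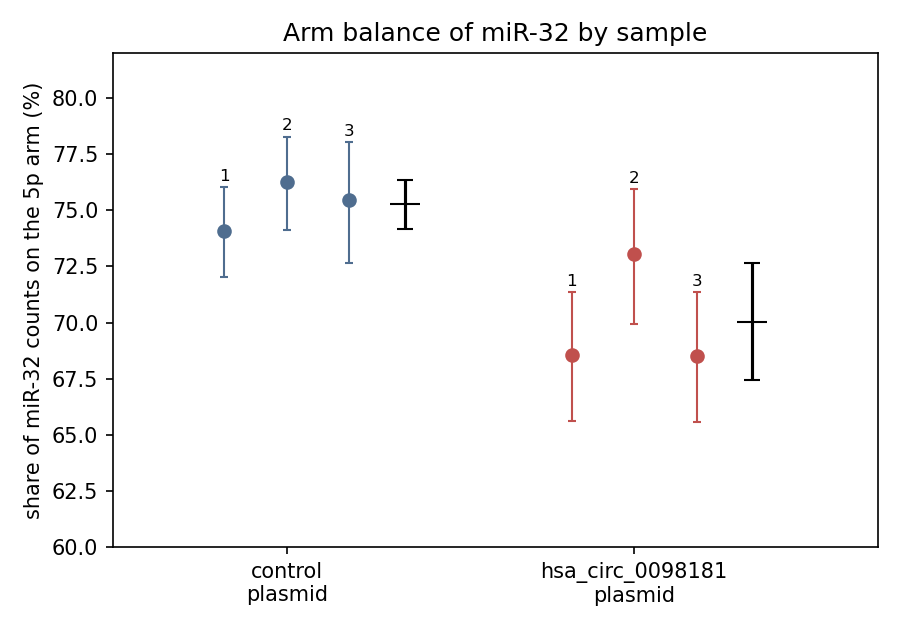
Share of the miR-32 counts on the 5p arm in each sample, in percent on an axis that starts at 60%; coloured bars are 95% Wilson intervals and black bars the mean ± SD (n = 3). All 3 overexpression samples, at 68.5% to 73.0%, lay below the 3 control samples, at 74.1% to 76.3%.

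Of the 135 hairpins with both arms tested, 26 (19.3%) had ratios that did not overlap between the groups, and in 17 the overexpression group was further below the control than in miR-32. Compared with the other hairpins, the arms of miR-32 were close in level. Over all 6 samples there were 2.67 counts of miR-32-5p for each count of miR-32-3p (geometric mean), a log2 ratio of 1.42, while the median size of the log2 ratio over the 135 hairpins was 3.69. Only 25 of the 135 (18.5%) had arms closer to each other. The 5p arm was the higher arm in 80 of the 135 (59.3%). Within groups, the ratio of miR-32 had an SD of 0.14 on the log2 scale, against a median of 0.24 over the 135 hairpins and of 0.16 over the 61 with at least 100 counts on both arms in every sample.

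Within its seed family, miR-32-5p was a minor member. miR-25-3p, from the miR-106b-25 cluster in MCM7, was at 28758 ± 2046 TPM (SD, n = 3) with the control plasmid and 31049 ± 393 TPM (SD, n = 3) with the circRNA plasmid, 293 times the level of miR-32-5p over all samples. miR-92a-3p, which is made from 2 precursors of the miR-17-92 and miR-106a-363 clusters, was at 8294 ± 1362 TPM (SD, n = 3) and 8998 ± 333 TPM (SD, n = 3), 84.7 times the level of miR-32-5p. The remaining members were rarer than miR-32-5p: miR-92b-3p was at a mean of 8.15 TPM over all samples and miR-363-3p at 1.38 TPM. miR-367-3p, known from pluripotent cells, had 0 counts in all 6 samples.

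miR-25-3p held 77.4% of the family's counts over all samples and miR-92a-3p held 22.3%. The share of miR-32-5p was 0.366%, 0.393% and 0.254% in control replicates 1 to 3, against 0.219%, 0.180% and 0.201% in overexpression replicates 1 to 3. These groups did not overlap, but this is again a description, as the share contains the 5p counts by which miR-32 was chosen. The summed level of the family was 37186 ± 3391 TPM (SD, n = 3) with the control plasmid and 40137 ± 509 TPM (SD, n = 3) with the circRNA plasmid, a difference within the spread of the control samples. The control samples were at 34802, 35687 and 41068 TPM, so that control replicate 3 was above the 3 overexpression samples in TPM. After scaling by TMM factors, miR-25-3p was at 26937.7 to 28598.6 CPM in the control samples and 30772.5 to 34161 CPM in the overexpression samples. miR-92a-3p was at 7258 to 9050 CPM and 8835 to 9702 CPM, and these overlapped. How many of all miRNAs tested were higher without overlap on this scale is not given here.

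The other family members were not used to choose miR-32, and their difference was tested in the same fit. Of the 4 with enough counts, 0 had an adjusted p under 0.05 in edgeR, 0 in DESeq2 and 0 in limma. All 4 had a log2 fold change above 0, as did 281 of all 552 miRNAs tested. It was 0.23 (SE 0.067) for miR-25-3p (adjusted p = 0.306) and 0.24 (SE 0.090) for miR-92a-3p (adjusted p = 0.421), whose unadjusted p were 0.00428 and 0.0192 in edgeR's test. For miR-92b-3p it was 0.18 (SE 0.17), and for miR-363-3p, with 70 counts in all, 0.29 (SE 0.37). With 1 sample left out, these ranged from 0.061 (without control replicate 1) to 0.26 for miR-92b-3p and from 0.12 (without overexpression replicate 3) to 0.45 (without overexpression replicate 1) for miR-363-3p. Without control replicate 3, both abundant members were called in edgeR and rose. miR-25-3p had a log2 fold change of 0.24 (adjusted p = 0.00307) and miR-92a-3p one of 0.32 (adjusted p = 0.000136). In that fit 56 of all 565 miRNAs tested were called (9.91%), 38 of them lower with the circRNA plasmid. With all 6 samples and library size alone, the log2 fold changes of miR-25-3p and miR-92a-3p were 0.11 and 0.12.

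By mean TPM over all samples, miR-32-5p (102 ± 27.0, SD, n = 6) was number 150 and miR-32-3p (37.7 ± 6.65, SD, n = 6) number 201 of 1366 miRNAs with at least 1 count. The order around them was not resolved. miR-301a-3p (104 TPM) and miR-222-3p (102 TPM) stood directly above miR-32-5p, and miR-615-3p (102 TPM) and miR-374b-3p (102 TPM) directly below it, all within 2.29 TPM of its mean. Each of these 4 was above miR-32-5p in 3 or 4 of the 6 samples. miR-375 and miR-339-3p (42.6 TPM each) stood above miR-32-3p, and miR-195-5p (36.9 TPM) and miR-3615 (35.9 TPM) below it, with differences smaller than the SD of miR-32-3p over the samples.

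The miRNAs whose pattern over the 6 samples was most like that of miR-32-5p were found by Pearson's r of the log2 scaled levels, among the 551 other miRNAs tested. They were miR-29b-3p (r = 0.98), known for targeting collagens and DNA methyltransferases, miR-17-5p (r = 0.98) and miR-18a-5p (r = 0.98) of the miR-17-92 cluster, miR-106b-5p (r = 0.98), which comes from the same transcript as miR-25-3p, and miR-96-5p (r = 0.98) of the cluster with miR-183. All 5 were more abundant than miR-32-5p, with means from 364 TPM for miR-106b-5p to 1975 TPM for miR-96-5p. All 6 samples enter r, so that it contains the difference between the groups, and with the group means taken out it was 0.94 for miR-29b-3p and for miR-17-5p, 0.95 for miR-106b-5p, 0.98 for miR-18a-5p and 0.998 for miR-96-5p. The 6 points share depth and the place of control replicate 3, and these r describe the libraries only.

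The other arm of the same hairpin was not among the most similar. miR-32-3p was number 65 of the 551 by likeness to miR-32-5p (r = 0.68, and 0.85 with the group means taken out), and miR-32-5p was number 52 by likeness to miR-32-3p. The most similar to miR-32-3p were miR-27b-5p (r = 0.94), miR-129-5p (r = 0.94), miR-19b-1-5p (r = 0.93), miR-574-3p (r = 0.92) and miR-145-5p (r = 0.92). Of these, miR-129-5p (1.06 TPM) and miR-145-5p (3.56 TPM) had few counts, so that their pattern is imprecise.

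No other tested miRNA of chromosome 9 lay close to MIR32. The nearest, miR-455-5p, is encoded 5.16 Mb away. In all, 21 miRNAs encoded on chromosome 9 alone were tested besides miR-32, of which 12 had a log2 fold change below 0 and 9 above 0, with a median of -0.018, against 0.0038 over all miRNAs tested, and 0 were called in edgeR (2 had an unadjusted p under 0.05). None of the 21 was further below the control than miR-32-5p, as were 17 of all 552. The 5 most abundant were miR-27b-3p (log2 fold change 0.068, SE 0.071), miR-126-3p (0.16, SE 0.081), miR-126-5p (0.19, SE 0.14), miR-23b-3p (-0.087, SE 0.092) and miR-455-5p (0.037, SE 0.10). Those of miR-27b-3p and miR-455-5p turned below 0 with library size alone, and those of miR-126-3p, miR-126-5p and miR-23b-3p were then 0.049, 0.085 and -0.21. Without control replicate 3, those of miR-126-3p, miR-126-5p and miR-455-5p were 0.097, 0.00039 and -0.089. Without control replicate 1, that of miR-126-5p was 0.33. miR-27b-3p and miR-23b-3p are nearly identical to miR-27a-3p and miR-23a-3p, and how the authors assigned reads between them is not given in the sources used here.

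The base composition of both arms was also compared with the differences. Of the 552 miRNAs tested, 493 (89.3%) had a sequence in RefSeq, and 4.67% of these had a lower share of G and C than miR-32-5p and 2.03% a lower share than miR-32-3p. In the third with the least G and C (181 miRNAs, 19.0% to 40.9%), which holds both arms, the median log2 fold change was -0.013, and 3 miRNAs were further below the control than miR-32-5p. Across the 493 miRNAs, which share these libraries, Spearman's rho between the share of G and C and the log2 fold change was -0.020. When each library was corrected for G and C, the log2 fold change was -0.48 (SE 0.11) for miR-32-5p and -0.068 (SE 0.14) for miR-32-3p. Without control replicate 3, rho was 0.14.

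The hepatocyte markers (miR-122-5p, miR-122-3p, miR-192-5p and miR-194-5p) summed to between 346875 and 384122 TPM per sample. The 14 markers of muscle, neurons, leukocytes, erythroid cells, endothelium and stroma summed to between 3352 and 3533 TPM, mostly miR-126-3p. Over all samples together, 0 of the 14 were without a count, but some were near the floor. No sample had more than 2 counts of miR-133a-3p or miR-206, or more than 4 of miR-142-5p or miR-144-3p. The 3 leukocyte markers summed to 11.0 to 12.1 TPM in the overexpression samples and 14.7 to 17.7 TPM in the control samples. This sum was carried by miR-142-3p, with means of 9.23 and 14.1 TPM, while miR-142-5p (0.445 and 0.216 TPM) and miR-223-3p (2.02 and 1.52 TPM) were higher on average in the overexpression samples. Their part in the difference of miR-32-5p was not tested.

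The study asks whether hsa_circ_0098181 binds miRNAs, and its host gene is SOX5. The complement of the miR-32-5p seed, GTGCAAT, was searched on the sense strand and was in 0 of the 22 annotated SOX5 transcripts and in 1 of the 12 transcripts of PPARA. The complement of the miR-32-3p seed, CTAAATT, was in 1 of the 22 and 0 of the 12. Among protein-coding transcripts within 10% of the length of SOX5-202 (3991 bases), 17.9% held GTGCAAT and 17.8% held CTAAATT. PPARA-201 (9965 bases) held neither, and 45.5% and 46.8% of the protein-coding transcripts within 10% of its length held them. These searches and shares are for whole linear transcripts, and the sequence of the circle was not searched on its own. For the 1 SOX5 transcript with CTAAATT, whether the site lies in the circle was not tested. The junction that closes the circle is not part of the annotated transcripts and was not searched.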

How the data were processed

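Small RNA counts of 6 Huh7 samples were used, 3 with hsa_circ_0098181 and 3 with the control plasmid, grouped by the sample labels. The authors deposited counts, whole numbers of reads per mature miRNA without normalization, and TPM values, which equalled the count scaled to a sample total of 1000000 to within 0.00303. The submitters' processing notes list hg38, TopHat2 2.0.9, Bowtie and TopHat without a role. Trimming, annotation and the treatment of multiply matching reads are not given in the sources used here, and such steps change the counts of similar miRNAs most.

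Group differences were fitted in edgeR 4.0.16 under R 4.3.3. Low miRNAs were removed by filterByExpr (minimum count 10, minimum total 15), the rest were scaled by TMM factors (0.921 to 1.09), and a quasi-likelihood model of the group alone was tested two-sided and Benjamini-Hochberg adjusted over 552 miRNAs, threshold 0.05. Log2 fold changes are overexpression minus control. In the edgeR fits, the SE is the size of the log2 fold change divided by the square root of the test's F statistic. For miR-32 it thus restates the fit by which miR-32 was chosen. DESeq2 and limma gave their own SE. Ratios of arms used counts with 0.5 added. Totals were 7144798 to 10786295 counts, and chi-square values of 17.7 to 162 per degree of freedom between samples of a group showed no library deposited more than 1 time. Alternatives were library size alone, DESeq2 1.42.0 and its size factors, upper-quartile factors, the library size without miR-122-5p, no filter, a minimum of 10 counts in each sample, limma 3.58.1 on log2 of CPM plus 1, the replicate number as a block, a loess correction (span 0.75) for G and C of the mature sequence, an added count of 5, family shares from TPM, and leaving out each sample. The fits were tested on simulated counts.

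The named miRNAs were both arms, the seed family, the 2 neighbours above and below each arm by level, the 5 most alike by Pearson's r, and the 5 most abundant encoded on chromosome 9 alone. miR-101-3p was left out of the last list because RefSeq names a further gene for it elsewhere. The members and lists were chosen with earlier results of these data known. Sequences are from RefSeq (GRCh38.p14), which held 2281 of the 2588 names, and gene positions from GENCODE 29 (GRCh38).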

Additional observations from a re-analysis of the deposited data

How the results depend on the processing

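The log2 fold changes of miR-32-5p and miR-32-3p stayed below 0 under all 17 alternatives. With a sample left out they were from -0.67 to -0.43 and from -0.29 to -0.0081, and otherwise from -0.63 to -0.47 and from -0.24 to -0.068. All alternatives use the counts by which miR-32 was chosen, so the sign of miR-32-5p remains a description. The count of calls at an adjusted p under 0.05, 0 of 552 with TMM factors, was 3 with library size alone and 6 of 1366 without a filter, and from 0 to 56 with a sample left out. In the seed family it was from 0 to 2 with a sample left out, the 2 being without control replicate 3, where 56 of all 565 miRNAs (9.91%) were called. The cause was not tested. The log2 fold changes of miR-27b-3p and miR-455-5p turned to -0.048 and -0.074 with library size alone and to -0.010 and -0.037 when miR-122-5p was taken out of the library size. Leaving out samples gave miR-455-5p values between -0.089 and 0.092. The group difference of the log2 ratio of the arms, -0.38, was between -0.48 and -0.33 when a sample was left out. That of the share of miR-32-5p in its family, -0.14 percentage points, was then between -0.18 and -0.11. Taking the family shares from TPM could not move them, because TPM is the count scaled to the sample total.

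Replicate numbers were not found to pair the samples. Over 152 abundant miRNAs the deviations of same-numbered samples correlated by -0.025, 0.15 and 0.24, and 3 of 6 samples correlated best with their own number. With the replicate block, the log2 fold changes of the arms were -0.51 and -0.13, and 0 miRNAs were called. The difference of their log2 ratio was again -0.38, which the block could not move, because each replicate number is in both groups.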
